A study of Homo sapiens with 59 samples.

Results

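The genes described here are 10 genes of antigen presentation by major histocompatibility complex (MHC) class II molecules. They are the chains HLA-DRA, HLA-DPA1, HLA-DPB1 and HLA-DQA1, the peptide editors HLA-DMA and HLA-DMB, their modulator HLA-DOA, the invariant chain CD74, the transactivator CIITA and the protease CTSS. Members were taken by gene symbol, with every probe annotated to them in the deposited signal table. 9 of the 10 genes had a named probe, with 11 probes in all, and 5 of them (HLA-DRA, HLA-DMA, HLA-DMB, CD74 and CTSS) were among the 11515 genes tested. HLA-DQA1 was not analysed here because no probe in the annotation used carried its symbol.

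MHC class II molecules display peptides from the endosomal pathway to CD4+ T cells, and macrophages, dendritic cells and B cells are the cells best known for carrying them. The α and β chains assemble with CD74, which blocks the groove until proteases such as cathepsin S (CTSS) trim it, and HLA-DM, made of HLA-DMA and HLA-DMB, then helps to exchange the last fragment for peptide. CIITA is recruited to class II promoters by the RFX, NF-Y and CREB proteins and is known as the master regulator of this set of genes, with interferon-γ as its classical inducer.

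The cells were of the human monocytic leukaemia line THP-1, and their RNA was hybridized to Illumina bead arrays. They had been turned into macrophage-like cells with 10 ng/ml of the phorbol ester PMA for 40 h and then kept for 2 h in medium without it. Cells of all groups shared this differentiation. They were then given 1 µM rosiglitazone (RSG), which activates the nuclear receptor PPARG, or DMSO as vehicle, and were collected after 0.5, 1.5, 3, 8 or 12 h. There were 10 groups and 59 arrays, 5 for RSG at 1.5 h and 6 for every other group. The cells are 1 line and nothing in the labels says that replicates were separate cultures, so that p-values measure only the spread between these arrays, which may be technical.

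Values are log2 intensities after background correction and quantile normalization, and a probe was counted as detected on an array when its detection p-value, the fraction of control beads without a target that outshone it, was below 0.01. Arrays had a mean raw signal between 318.0 and 1396.4, and 12182 to 13937 probes were detected. Of the lists of cell type markers, the macrophage and monocyte list had 14 of its 17 genes with a probe detected on all 54 arrays described below. Its mean level there ran from 9.33 to 9.70. The B cell list had 4 of 9 genes detected on all 54, with a mean of 5.31 to 5.64. The T and NK cell list had 4 of 12, with a mean of 5.58 to 5.90, and the dendritic cell list 6 of 16, with 5.94 to 6.47. In 5 arrays (replicate 1 of RSG 8 h, replicates 2 and 5 of RSG 12 h, replicates 4 and 6 of DMSO 12 h) the median correlation with the other arrays was 0.894 to 0.930, against 0.958 to 0.986 for the other 54. On 4 further arrays the level of PDK4, a gene known to respond to PPARG ligands, went against the rest of their group. PDK4 stood at 6.88 and 8.21 on the arrays labelled DMSO 3 h replicates 1 and 4 and at 4.72 to 5.22 on the other 4 of that group. It stood at 4.95 on the array labelled RSG 3 h replicate 2, against 7.62 to 8.45 in its group, and at 7.50 on that labelled RSG 0.5 h replicate 6, against 4.56 to 5.49. Results are therefore given for 59 arrays, for the 54 arrays without the 5, and, where a call differs, for the 50 arrays without all 9.

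Upstream sequences of 4 members are shown because they share a pair of short runs of letters that resemble known class II promoter elements. Of the 10 members, 7 had a promoter window in the RefSeq sequences used (build GRCh38.p14), and 4 of these carried, within 250 bases upstream of the start site, the letters CNAGNNAC and ATTGG (or its complement CCAAT), searched on both strands, with 15 to 45 bases between them. These elements are the X box and the Y box, to which RFX and NF-Y bind, and the letters were chosen after the sequences had been seen. Among 35116 promoter windows, 33.23% held CNAGNNAC, 32.01% held ATTGG and 3.582% held both at such a spacing. The 4 stretches, with the matched letters in capitals and written 5′ to 3′ on the strand of the gene, are those of HLA-DMA (chr6:32953160-32953224, minus strand), HLA-DQA1 (chr6:32637290-32637354, plus strand), HLA-DOA (chr6:33009642-33009706, minus strand) and CD74 (chr5:150412947-150413005, minus strand).
HLA-DMA: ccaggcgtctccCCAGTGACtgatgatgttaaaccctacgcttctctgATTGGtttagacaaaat
HLA-DQA1: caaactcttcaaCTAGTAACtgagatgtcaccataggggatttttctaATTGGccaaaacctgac
HLA-DOA: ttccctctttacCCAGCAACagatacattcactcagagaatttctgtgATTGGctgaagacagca
CD74: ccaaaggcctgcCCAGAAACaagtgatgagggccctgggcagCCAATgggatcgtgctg

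The spacing between the matched letters was 28 bases in HLA-DMA, HLA-DQA1 and HLA-DOA and 22 in CD74, where the second run of letters lies on the other strand. HLA-DMB held both sets of letters but not at this spacing, and HLA-DPA1 and HLA-DPB1 did not hold the pair. HLA-DRA, CIITA and CTSS were not looked up further. A match of letters is a description of the sequence and not a measured binding site.

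The members fell into 3 sets by detection. CD74, HLA-DMA and CTSS were detected on all 59 arrays and HLA-DMB on 58. HLA-DRA, the α chain of HLA-DR, was close to the limit, detected on 23 arrays, among them the 5 arrays that stood apart and 18 of the other 54. HLA-DPA1 was detected on 4 arrays, all of them among the 5, and HLA-DPB1 and HLA-DOA on 0. CIITA was not detected on any array either, with a lowest detection p-value of 0.0173 and 5 arrays below 0.05, so that its transcript was not detectable with this probe and no fold change is given for it. Its level lay between 4.35 and 5.20 on the 54 arrays and between 4.82 and 5.16 on the 5. Of the 3 probes of CD74, 2 were detected everywhere and the third, ILMN_1761464, on 3 arrays. The plot of levels per array shows HLA-DPA1 with the 5 tested members.

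**Figure D1:**
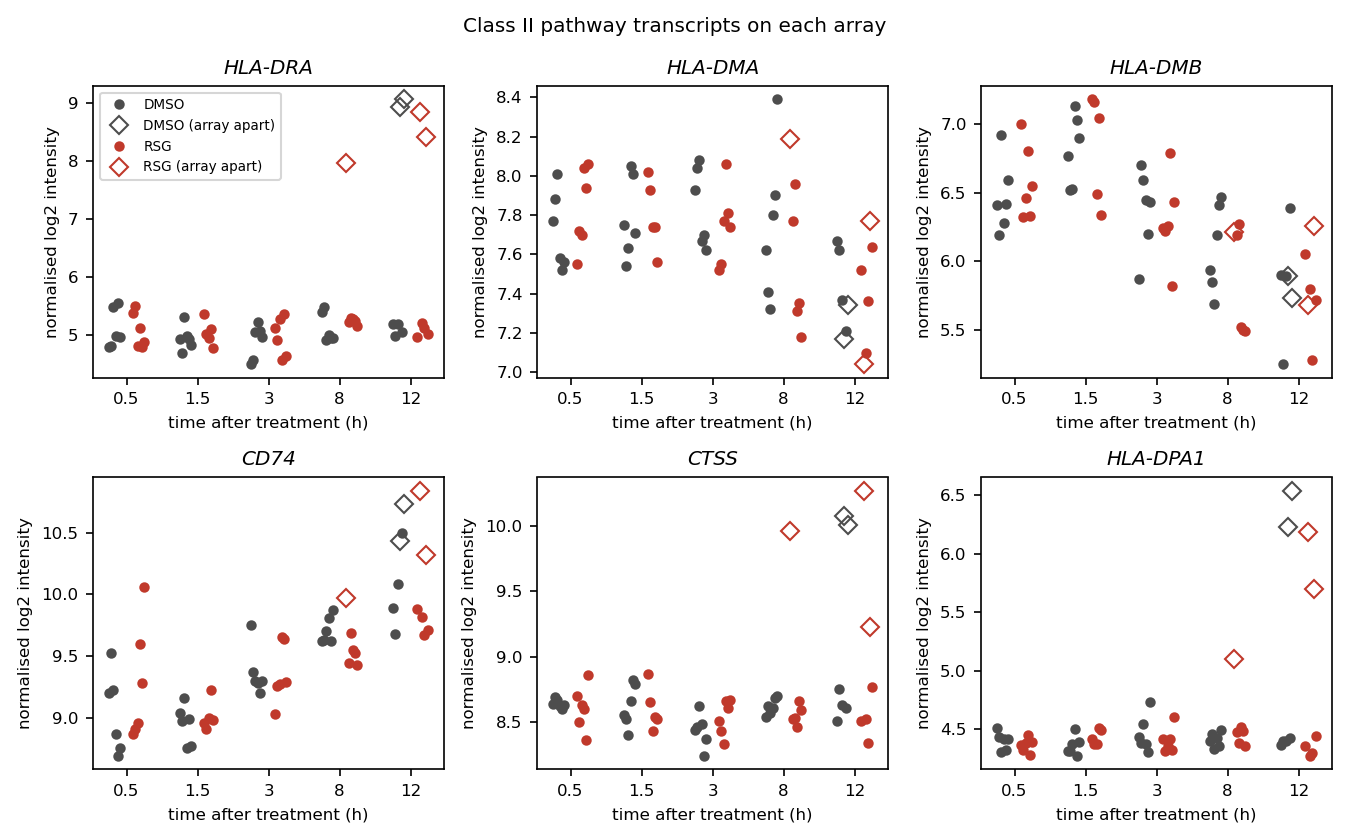
Normalised log2 intensity of HLA-DRA, HLA-DMA, HLA-DMB, CD74, CTSS and HLA-DPA1 (y axis, scaled per panel) by time in hours (x axis), with 1 point per array, grey for DMSO and red for RSG, and open diamonds for the 5 arrays that stood apart. HLA-DRA lies between 4.50 and 5.56 on the other 54 arrays and between 7.97 and 9.06 on the 5.

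None of the 5 tested members was called between RSG and DMSO at any time by limma's test with Benjamini-Hochberg adjustment over all genes. At 12 h, CD74 had a lowest, median and highest level of 9.68, 9.98 and 10.50 in the 4 DMSO arrays of the 54, and of 9.67, 9.77 and 9.88 in the 4 RSG arrays. The groups overlapped, and the difference of -0.27 (95% interval -0.62 to 0.08) was the largest in size among the members at 12 h, with an adjusted p of 0.658. Over the 5 members and 5 times, the differences between RSG and DMSO ran from -0.30 to 0.24 in 54 arrays and from -0.23 to 0.58 in 59, and the lowest adjusted p was 0.658 and 0.934, respectively. The 0.58 was that of HLA-DRA at 8 h and came down to 0.12 without RSG 8 h replicate 1. Because these are bulk samples, fewer cells expressing a gene and less RNA per cell cannot be told apart in any of these values.

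The background shows how few genes passed the same test. Between RSG and DMSO in 59 arrays, 0% of genes were called at 0.5 h, 0% at 1.5 h, 0% at 3 h, 0.0955% at 8 h and 0.0261% at 12 h, with 0 of 5 members at each time. In 54 arrays the shares were 0% at 0.5 h, 0.0521% at 1.5 h, 0% at 3 h, 1.15% at 8 h and 1.82% at 12 h, again with 0 of 5 members. None of the 5 members had an unadjusted p under 0.05 in either set at any time, beside 1245 of 11515 genes at 12 h in 54 arrays. With 5 members, a count of 0 does not set them apart from all genes. All 6 listed PPARG ligand-response genes, PDK4 among them, were higher in RSG at 12 h in 54 arrays and 0 of 6 were called in 59.

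Averaged over all times, every interval held 0. In 54 arrays RSG minus DMSO was 0.05 for HLA-DRA (95% interval -0.08 to 0.18), -0.05 for HLA-DMA (-0.18 to 0.08) and -0.07 for HLA-DMB (-0.24 to 0.10). It was -0.01 for CD74 (-0.15 to 0.13) and -0.02 for CTSS (-0.09 to 0.06). The treatment term called 0 of 5 members, with 0.243% of all genes called in 59 arrays and 1.64% in 54, and the interaction of treatment and time called 0 of 5, with 0% and 0.399%. The plot of differences by time gives all 25 values of the 54 arrays with their intervals.

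**Figure D2:**
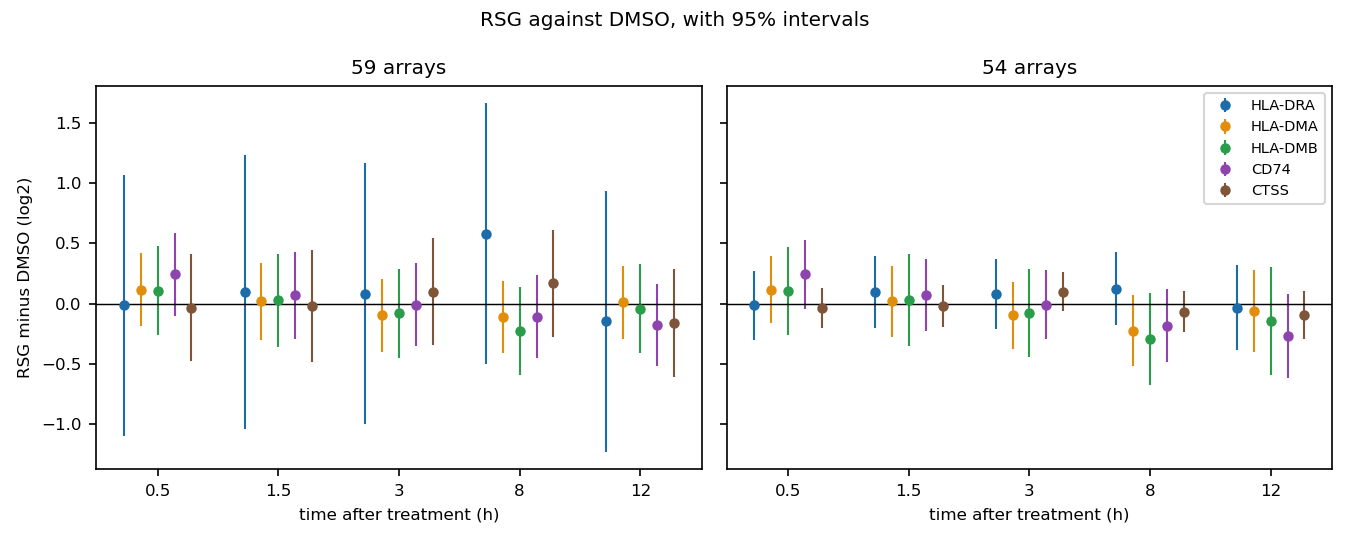
Difference in log2 intensity between RSG and DMSO (y axis) of the 5 tested members by time in hours (x axis), in 59 arrays on the left and 54 on the right, with points for the difference and bars for the 95% interval. No difference was called at any time, and the values of the 54 arrays run from -0.30 to 0.24.

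Beneath these averages lay opposite differences between replicates 1 to 3 and replicates 4 to 6 of the same groups. At 0.5 h, CD74 stood at 9.20, 9.52 and 9.22 in DMSO replicates 1 to 3 and at 8.87, 8.91 and 8.96 in RSG replicates 1 to 3. In replicates 4 to 6 it stood at 8.87, 8.69 and 8.75 in DMSO and at 9.60, 9.28 and 10.06 in RSG. CD74 was thus higher in DMSO among the former and higher in RSG among the latter, with no overlap in either, and the arrays with high CD74 are DMSO 1 to 3 and RSG 4 to 6.

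Fitted within each set of replicate numbers, CD74 at 0.5 h was lower in RSG by a difference of -0.39 in numbers 1 to 3 (adjusted p = 0.0440) and higher by 0.88 in numbers 4 to 6 (adjusted p = 0.0022). The test of the difference between these differences gave -1.27 (SE 0.19, adjusted p = 8.6e-06). The split by replicate number was chosen after the data had been seen, so that p-values within it or for it describe these arrays and are no independent support for the split. RSG 0.5 h replicate 6, the highest value, is also an array on which PDK4 went against its group. HLA-DMA at 0.5 h differed by 0.46 in numbers 4 to 6 (adjusted p = 0.0373) and by -0.23, not called, in numbers 1 to 3.

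At 8 h both peptide editors showed the split. HLA-DMA stood at 7.62, 7.41 and 7.32 in DMSO replicates 1 to 3 and at 7.80, 7.90 and 8.39 in DMSO replicates 4 to 6. In RSG it stood at 7.77 and 7.96 in replicates 2 and 3 and at 7.31, 7.35 and 7.18 in replicates 4 to 6. Levels in DMSO 4 to 6 and RSG 2 and 3 were therefore high and those of the other arrays low, without overlap. The difference between RSG and DMSO was 0.41 in numbers 1 to 3 (adjusted p = 0.0485) and -0.75 in numbers 4 to 6 (adjusted p = 0.0014). HLA-DMB, its partner chain, stood at 5.94, 5.85 and 5.69 in DMSO replicates 1 to 3 and at 6.19, 6.41 and 6.47 in DMSO replicates 4 to 6. In RSG it stood at 6.19 and 6.27 in replicates 2 and 3 and at 5.52, 5.50 and 5.49 in replicates 4 to 6. Its difference was -0.85 in numbers 4 to 6 (adjusted p = 0.0086) and 0.40, not called, in numbers 1 to 3.

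The split was not particular to class II genes. Within numbers 1 to 3, 7.88% of all genes were called between RSG and DMSO at 0.5 h (1 of 5 members, CD74), 0.148% at 1.5 h (0 of 5), 12.5% at 3 h (1 of 5, HLA-DMA, at -0.40), 10.9% at 8 h (1 of 5, HLA-DMA) and 13.9% at 12 h (0 of 5). Within numbers 4 to 6 the shares were 9.94% at 0.5 h (2 of 5, HLA-DMA and CD74), 6.29% at 1.5 h (0 of 5), 0.894% at 3 h (0 of 5), 11.8% at 8 h (2 of 5, HLA-DMA and HLA-DMB) and 6.08% at 12 h (1 of 5, CD74, where DMSO replicate 5 stands alone and is assumed to vary like the other groups). Of the 381 genes called in both sets at 0.5 h all had opposite signs, as had 6 of 8 at 1.5 h, all 66 at 3 h, 370 of 427 at 8 h and 134 of 188 at 12 h, where the other 54 had the same sign. Called or not, the difference between RSG and DMSO had opposite signs in the 2 sets at 5 of 5 times for HLA-DMA, at 4 for HLA-DRA, at 3 for HLA-DMB and CD74 and at 2 for CTSS. The labels give replicate numbers no meaning beyond a count, and what the numbers stand for was not tested.

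**Figure D3:**
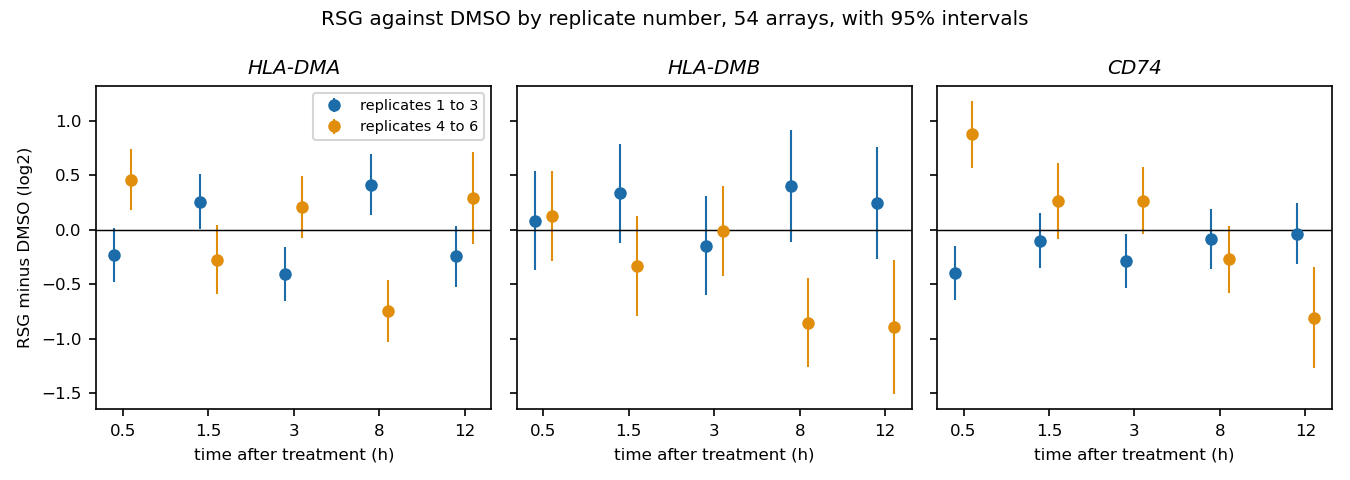
Difference in log2 intensity between RSG and DMSO (y axis) by time in hours (x axis), computed separately in replicates 1 to 3 and in replicates 4 to 6 of the 54 arrays, with bars for the 95% interval. For CD74 at 0.5 h the values are -0.39 and 0.88, and for HLA-DMA at 8 h they are 0.41 and -0.75.

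Along the time course 3 members were called, 2 of 5 in DMSO at 12 h beside 37.4% of all genes in 54 arrays, and 3 of 5 in RSG beside 37.9%. Hours since PMA removal cannot be told apart from hours in culture or with DMSO or RSG, since all groups shared the removal. CD74 rose in vehicle cells, HLA-DMB fell, and HLA-DMA fell in RSG cells, while CTSS and HLA-DRA were not called. In DMSO the lowest, median and highest level of CD74 were 8.69, 9.03 and 9.52 at 0.5 h, 8.75, 8.98 and 9.16 at 1.5 h, 9.20, 9.30 and 9.75 at 3 h, and 9.62, 9.66 and 9.87 at 8 h. At 12 h the 4 arrays of the 54 stood at 9.89, 9.68, 10.08 and 10.50, and the other 2 at 10.43 and 10.73. The arrays of 8 and 12 h all lay above those of 0.5 h.

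CD74 rose by 0.67 at 8 h in both sets of arrays (SE 0.17 in 59 and 0.14 in 54, adjusted p = 0.00244 and 0.000147). By 12 h it had risen by 1.18 in 59 arrays (SE 0.17, adjusted p = 2.39e-07) and by 1.00 in 54 (SE 0.16, adjusted p = 9.68e-07), a 2.00-fold increase in the latter. The second probe of CD74, ILMN_2379644, gave 1.25 and 0.98. Within replicates 1 to 3 the rise at 12 h was 0.57 (adjusted p = 0.00044) and within replicates 4 to 6 it was 1.73 (adjusted p = 1.91e-06), the latter resting on DMSO 12 h replicate 5. In RSG cells CD74 rose from 0.5 to 12 h by 0.76 in 59 arrays (adjusted p = 0.00038) and by 0.49 in 54 (adjusted p = 0.0120). That rise was 0.93 in replicates 1 to 3 and 0.04, not called, in replicates 4 to 6, whose arrays at 0.5 h include the 10.06 of replicate 6. It was 0.64 in 50 arrays, without that replicate (adjusted p = 0.000274).

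**Figure D4:**
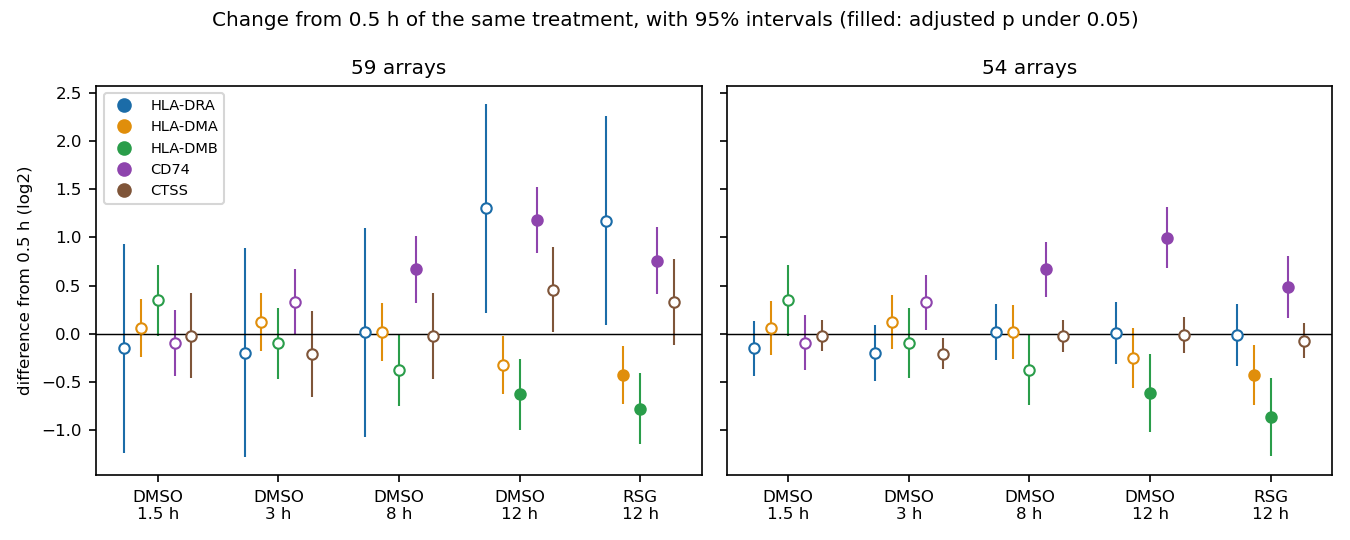
Difference in log2 intensity of the 5 tested members from 0.5 h of the same treatment (y axis) for 4 later times in DMSO and for 12 h in RSG (x axis), in 59 arrays on the left and 54 on the right, with bars for the 95% interval and filled points for an adjusted p under 0.05. CD74 rises by 1.00 in DMSO from 0.5 to 12 h in the 54 arrays and HLA-DMB falls by 0.61.

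HLA-DMB ran the other way. Its lowest, median and highest level in DMSO were 6.19, 6.42 and 6.92 at 0.5 h, and the 4 arrays of 12 h stood at 5.90, 5.25, 5.89 and 6.39. Only DMSO 12 h replicate 5 reached into the range of 0.5 h. The difference at 12 h was -0.63 in 59 arrays (SE 0.18, adjusted p = 0.00621) and -0.61 in 54 (SE 0.20, adjusted p = 0.0135), but -0.41 in the latter without DMSO 12 h replicate 2, with an adjusted p of 0.132. Within replicates 4 to 6 it was -0.04 and not called. In RSG, HLA-DMB fell from 0.5 to 12 h by 0.78 in 59 arrays and by 0.86 in 54 (adjusted p = 0.000678 and 0.000466), and it fell within both sets of replicate numbers.

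HLA-DMA fell by 0.43 in RSG from 0.5 to 12 h (SE 0.15 in 59 arrays and 0.16 in 54, adjusted p = 0.0237 and 0.0247). Its lowest, median and highest level were 7.55, 7.83 and 8.06 at 0.5 h, and the 4 arrays of 12 h stood at 7.52, 7.10, 7.36 and 7.64, so that the groups overlapped. The call was lost in 50 arrays, at -0.38 (adjusted p = 0.0588). In DMSO the difference was -0.32 in 59 arrays and -0.25 in 54, neither called. HLA-DMA and HLA-DMB, which pair as 1 molecule, had a correlation of 0.59 over the 54 arrays and of 0.46 within groups, given as a description since arrays of a group share their label and normalization.

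CTSS, which trims the invariant chain, stayed between 8.24 and 8.87 on all 54 arrays. Its difference in DMSO from 0.5 to 12 h was -0.01 in 54 arrays and 0.46 in 59, not called in either. HLA-DRA differed by 0.01 in 54 arrays and by 1.30 in 59 (adjusted p = 0.0583). Both values in 59 arrays rest on DMSO 12 h replicates 4 and 6, where HLA-DRA stood at 8.93 and 9.06 against 4.99 to 5.20 in the other 4. All 5 RSG arrays of 8 h among the 54 detected HLA-DRA, against 1 or 2 arrays of each other group, though their levels of 5.16 to 5.30 lay within the range of DMSO at 8 h, 4.92 to 5.49.

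The share of all genes called with time was large beside these counts. In DMSO against 0.5 h, 0.894% of genes were called at 1.5 h, 9.27% at 3 h, 24.6% at 8 h and 31.7% at 12 h in 59 arrays, with 0, 0, 1 and 2 of 5 members. In 54 arrays the shares were 5.91%, 21.1%, 36.5% and 37.4%, with the same counts of members. In RSG, 12 h against 0.5 h, 32.1% and 37.9% of genes were called, with 3 of 5 members in each. The median difference of the 5 members in DMSO at 12 h was 0.46 in 59 arrays and -0.01 in 54, beside 0.01 and 0.00139 over all genes.

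The 5 arrays that stood apart had the highest levels of HLA-DRA, HLA-DPA1 and CTSS in the series. HLA-DRA stood at 7.97 to 9.06 on them, with a median of 8.84, and at 4.50 to 5.56 on the other 54, with a median of 5.03. HLA-DPA1, the α chain of HLA-DP, stood at 5.10 to 6.54 against 4.27 to 4.73. CTSS stood at 9.23 to 10.3 against 8.24 to 8.87, and none of these 3 ranges overlapped. The 5 arrays had been picked for standing apart over the 13877 named probes that passed the detection filter, which a probe detected on these 5 arrays alone also passes. Of all 16922 named genes 4.67% lay wholly higher on them than on the 54 and 5.79% wholly lower, beside 3 and 0 of the 9 members with a probe. Of the 11515 tested genes the shares were 6.68% and 8.49%, beside 2 and 0 of the 5 tested members. CD74, by the probe used in the tests, stood at 9.97 to 10.8 against 8.69 to 10.5, with overlap. Its second probe, ILMN_2379644, stood at 9.13 to 9.71 against 7.33 to 8.93, without overlap, and is not among the members counted above. HLA-DMA stood at 7.04 to 8.19 against 7.10 to 8.39, overlapping. HLA-DMB stood at 5.68 to 6.26, within the 5.25 to 7.18 of the others. The 5 arrays were singled out by their correlation over these probes and belong to 3 groups of both treatments, so that no test was made between them and the rest.

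The HLA-DR β chains, partners of HLA-DRA, did not separate in this way. HLA-DRB1 stood at 8.91 to 9.51 on the 5 arrays and at 8.52 to 9.56 on the others, and HLA-DRB5 at 7.17 to 7.54 against 6.18 to 7.37. The genes HLA-DRB1, HLA-DRB3, HLA-DRB5 and HLA-DRB6 are related in sequence, and which of them a probe reports is uncertain. HLA-DQB1, HLA-DOB, HLA-DRB4 and HLA-DPB2 were not detected on any array.

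Other genes of antigen-presenting cells moved on the same 5 arrays. CCR7, a homing receptor of mature dendritic cells, stood at 9.73 to 12.9 against 4.30 to 4.97, LAMP3 at 13.4 to 14.0 against 4.27 to 4.88 and the co-stimulatory CD80 at 10.5 to 11.2 against 4.26 to 4.75, each undetected on the 54. The mean level of the dendritic cell list, over 16 genes with a probe, was 7.63 to 7.99 on the 5 arrays and 5.94 to 6.47 on the others, with 5 of the 16 undetected on all 5. The interferon response list, over 14 genes, stood at 10.3 to 12.1 against 7.08 to 7.81, with CXCL10 at 10.9 to 13.8 against 4.50 to 5.48. The macrophage and monocyte list stood lower, at 8.60 to 8.81 against 9.33 to 9.70. The B cell list stood at 4.93 to 5.16 against 5.31 to 5.64. Among markers of resting dendritic cells, CLEC10A was not raised and CD1C stood lower with a small overlap, at 4.84 to 5.45 against 5.32 to 6.95. Members of the dendritic cell list thus went both ways. In DMSO from 0.5 to 12 h, CD209 changed by -1.43 in 59 arrays, which add DMSO 12 h replicates 4 and 6, and by -0.87 in 54. CD1A changed by -1.18 and -0.58 and FLT3 by -0.82 and -0.05. IDO1 changed by 2.84 and 0.10 and CCL22 by 1.48 and 0.06. The part of these genes in the levels of HLA-DRA, HLA-DPA1 and CTSS was not tested.

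Among the factors that act on class II promoters, RFX5, the DNA-binding subunit of the RFX complex, rose in vehicle cells. Its lowest, median and highest level were 10.01, 10.20 and 10.50 at 0.5 h and 10.59, 10.80 and 11.03 in the 4 arrays of 12 h, without overlap. The rise was 0.83 in 59 arrays (adjusted p = 3.92e-05) and 0.57 in 54 (adjusted p = 5.71e-06). RFX5 was the only 1 of the 7 tested genes of its list (RFX, NF-Y and CREB1) called in either, beside 31.7% and 37.4% of all genes. The median of the list was 0.15 in 59 arrays and 0.08 in 54.

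Upstream of CIITA, 5 of 12 tested genes were called in DMSO from 0.5 to 12 h in 59 arrays and 7 in 54, of which 3 rose and 4 fell, beside 31.7% and 37.4% of all genes. In 54 arrays the interferon-γ receptor chain IFNGR2 changed by -0.93, the factor USF1 by -1.05 and the interferon regulatory factor IRF1 by -0.79. PRDM1, a repressor of CIITA, rose by 0.59. JAK2 and IFNGR1 rose by 0.54 and 0.36, and SOCS1 changed by -0.45. The levels of USF1 overlapped and were widely spread at 12 h, with a lowest, median and highest of 6.55, 8.59 and 9.19. At 0.5 h they ran from 8.76 to 9.76. IRF1 was also the 1 gene of this list called between RSG and DMSO at 12 h in 54 arrays, beside 1.82% of all genes. Its 4 levels ran from 9.38 to 9.73 in DMSO and from 10.09 to 10.49 in RSG, without overlap, with a difference of 0.72 (SE 0.19, adjusted p = 0.0321). In 59 arrays the difference was 0.33 and not called. Over all times it was 0.40 in 54 arrays (adjusted p = 0.000906) and not called in 59. By replicate numbers, IRF1 at 12 h differed by 0.77 in 1 to 3 and by 0.71, not called, in 4 to 6, but at 8 h by 0.96 and -0.39.

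Among genes of class II turnover, RSG cells differed in MARCHF1, a ubiquitin ligase that takes class II molecules and CD86 from the cell surface. In vehicle cells its lowest, median and highest level rose from 4.57, 4.89 and 5.05 at 0.5 h, undetected on all 6 arrays, to 5.67, 5.74 and 5.98 at 12 h, detected on all 4. In RSG at 12 h they were 4.68, 5.19 and 5.35, detected on 2 of 4 arrays and without overlap with DMSO. The difference between RSG and DMSO at 12 h was -0.68 in 54 arrays (SE 0.16, adjusted p = 0.0130) and -0.34, not called, in 59. Of the genes of its list only MARCHF1 was called there in 54 arrays, beside 1.82% of all genes.

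At 12 h MARCHF1 was lower in RSG in both sets of replicate numbers, with a difference of -0.53 in 1 to 3 (adjusted p = 0.0280). The difference was -0.96 in 4 to 6, where DMSO replicate 5 stands alone. The probe was detected on 1 of the 2 RSG arrays in each set, so that part of these values lies near background. At 8 h MARCHF1 differed by -0.20, not called, in 1 to 3 and by -1.16 in 4 to 6, where no RSG array detected it. In DMSO, with no array of 0.5 h above background, MARCHF1 was at least 1.53-fold higher at 12 h in 54 arrays (limma, adjusted p = 9.43e-07), counting an undetected value at no less than the lowest detected signal of its array. Of the other 3 genes of class II turnover tested, TMEM127 fell by 0.35 in 54 arrays, and MARCHF8 and RAB7A were not called there.

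Of 13 genes of endosomal processing, 4 (2 higher, 2 lower) were called in DMSO from 0.5 to 12 h in 59 arrays and 5 (2 higher, 3 lower) in 54, shares near the 31.7% and 37.4% of all genes. In 54 arrays the cathepsins CTSL and CTSH changed by -0.78 and -0.46, the intramembrane protease SPPL2A, which cleaves the last remnant of CD74, by -0.42, and CTSZ and the legumain gene LGMN rose by 0.72 and 0.70. Of 7 co-stimulatory genes, 1 was called in 59 arrays and 4 in 54, where CD86 rose by 0.91 and CD83, ICOSLG and CD40 changed by -1.94, -0.72 and -0.58. Of the 4 HLA-DRB genes tested, 0 were called in 59 arrays and 1 in 54, HLA-DRB6 at -0.55. Of 19 class I genes, 8 rose in 59 arrays, and in 54 arrays 5 rose, among them the proteasome subunit PSMB9 by 0.76, and 2 fell, HLA-E by 1.02 and NLRC5 by 0.71. Between RSG and DMSO at 12 h none of the genes of these 4 lists was called in either set of arrays. Of 14 macrophage and monocyte markers tested, 8 were called in DMSO from 0.5 to 12 h in 59 arrays and 7 in 54. The shares of all genes were again 31.7% and 37.4%. In 54 arrays the called markers went both ways. LYZ and MSR1 changed by -1.10 and -1.03, while CD14 and AIF1 rose by 0.65 and 0.47. Between RSG and DMSO at 12 h, 2 of the 14 were called in 54 arrays, CD163 at -0.52 and FCGR2A at -0.60, and 0 in 59. Of all genes, 1.82% and 0.0261% were called there.

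In pattern, HLA-DRA had no close companion once the 5 arrays were set aside. Over 54 arrays its highest correlations were 0.56 with ZRANB1 and WASL and 0.53 with ZNF326, at levels near the limit of detection. Over the 10 group means they were 0.90 with SLC39A11 and 0.89 with ZRANB1. Over 59 arrays it followed LAMP3 and SERPINB7 at 0.97, which rests on the 5 arrays. CD74, chosen for this measure after its values had been seen, followed CD4, the co-receptor that binds class II molecules, at 0.92 over 54 arrays, 0.99 over the 10 group means and 0.62 over 59 arrays. CD4 was not alone in this. NME3 and ST3GAL4 followed CD74 at 0.90 and 0.89 over 54 arrays, and PTMS at 0.99 over the group means. Over 59 arrays the closest gene was PA2G4 at 0.91. CD4 had a median of 5.82 in DMSO at 0.5 h and of 7.10 at 12 h in the 54 arrays. These correlations carry no test, and all arrays share 1 normalization.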

How the data were processed

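Members and gene lists were chosen with earlier results of these data known. The authors deposited a table of raw intensity, averaged over the beads of a probe and not yet background-subtracted or scaled, with a detection p-value for each value. A second deposited table holds an intensity that the authors background-subtracted and scaled to a common array mean in BeadStudio, used as an alternative. Of 24531 probes, 5 missing from the second table were left out. Intensities were background-corrected with the detection p-values (offset 16), quantile-normalized and log2-transformed (neqc, limma 3.58.1, R 4.3.3). A probe entered when 5 or more arrays had a detection p-value below 0.01 (15336 probes, 13877 of them named by the platform annotation). The brightest probe on average stood for its gene, which gave 11515 genes. A mean was fitted per group in limma over all 10 groups, with two-sided moderated tests, Benjamini-Hochberg adjustment over all genes and a threshold of 0.05.

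After the data had been seen, a fit without 5 arrays of median correlation under 0.95 and a fit of 50 arrays were added, as were fits of replicates 1 to 3 and 4 to 6. The other alternatives were other background corrections, scalings, filters, probe choices, variance models, blocks and each array left out. In data simulated on 11515 genes, RSG against DMSO at 12 h recovered 88% of log2 changes of 1 and 40% of 0.5 with 59 arrays, and 91% and 37% with 54. The simulated noise was drawn independently for each array and gene, with each gene's own spread. It held neither the 5 arrays apart nor the split by replicate number, so that these shares may not hold for the real arrays. The members were named throughout. From the other lists, up to 4 called genes each of largest change at 12 h were named, none from some marker lists. SPPL2A, HLA-DRB1, HLA-DRB5, CCR7, LAMP3, CD80, CXCL10, CD1C, CLEC10A, CD209, CD1A, FLT3, IDO1, CCL22 and CD4 were added after their values were seen. CD14, AIF1, JAK2, IFNGR1 and SOCS1 were also added after their values were seen. Replicate numbers were not used to pair arrays.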

Additional observations from a re-analysis of the deposited data

Results flagged for a closer look

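A sample far from the rest of its group was found in 6 of 70 tests over 7 probes and 10 groups, and chance gives about 1 in 20. RSG 8 h replicate 1, 1 of the 5 arrays that stood apart, had HLA-DRA at 7.97 against 5.16 to 5.30, CTSS at 9.96 against 8.46 to 8.66 and HLA-DPA1 at 5.10 against 4.35 to 4.52. CD74 was 9.75 on DMSO 3 h replicate 1, where PDK4 also went against its label, against 9.20 to 9.37 in the rest of the group. CD74 was 9.22 on RSG 1.5 h replicate 4 against 8.91 to 9.0. HLA-DPA1 was 4.60 on RSG 3 h replicate 6 against 4.31 to 4.41, below detection on all of them.

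The difference between RSG and DMSO was not the same in replicates 1 to 3 and in replicates 4 to 6 for 9 combinations of member and time, by a test of that difference in 54 arrays with adjustment over all genes. This split was chosen after the data had been seen, so that the test is a description of it. For CD74 the difference of differences (1 to 3 minus 4 to 6) was -1.27 at 0.5 h, -0.55 at 3 h and 0.77 at 12 h. For HLA-DMA it was -0.69 at 0.5 h, 0.53 at 1.5 h, -0.61 at 3 h and 1.16 at 8 h. For HLA-DMB it was 1.25 at 8 h and 1.14 at 12 h. Over all genes the same test called 28.2%, 16.5%, 17.5%, 24.7% and 20.7% from 0.5 to 12 h.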

How the results depend on the processing

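Calls of members between RSG and DMSO stayed at 0 under every alternative except the fits within replicate numbers. Replicates 1 to 3 gave 1 call at 0.5 h, 1 at 3 h, 1 at 8 h and 1 for the interaction, and replicates 4 to 6 gave 2 at 0.5 h, 2 at 8 h, 1 at 12 h and 3 for the interaction. For time in DMSO against 0.5 h, replicates 1 to 3 gave 3 calls at 8 h, and replicates 4 to 6 gave 1 at 1.5 h, 1 at 3 h, 2 at 8 h and 1 at 12 h. Array weights gave 1 call at 3 h and 2 at 8 h, and probes detected on all arrays, which drops HLA-DRA and HLA-DMB, gave 1 at 12 h. Leaving out each array in turn gave 0 to 1 calls in DMSO at 3 h, where DMSO 0.5 h replicate 2, DMSO 3 h replicate 3 or RSG 0.5 h replicate 6 made the difference in 54 arrays. It gave 1 to 4 calls in DMSO at 12 h (4 without DMSO 12 h replicate 1 in 59 arrays, 1 without replicate 2 in 54) and 2 to 4 in RSG from 0.5 to 12 h. With replicate number as a block the members called were 1 in DMSO at 8 h, 2 in DMSO at 12 h and 3 in RSG from 0.5 to 12 h, and the block changed no call. The numbers did not pair the arrays, with mean residual correlations of -0.36, -0.27, -0.20, -0.44 and -0.01 between arrays of the same number from 0.5 to 12 h.

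Within replicates 1 to 3, 3 differences turned against their sign in 59 and 54 arrays and were called. CD74 between RSG and DMSO at 0.5 h was -0.39 (0.24 in both), HLA-DMA between RSG and DMSO at 8 h was 0.41 (-0.11 and -0.22), and HLA-DMA in DMSO at 8 h was -0.44 (0.02 in both). Replicates 4 to 6 gave no such case. The signs that turned among the differences at 12 h, given next, were not called. HLA-DRA in DMSO at 12 h (1.30) was -0.025 in 54 arrays with the block and -0.12 in replicates 4 to 6, with -0.050 to 1.59 when each array was left out. CTSS in DMSO at 12 h (0.46) was -0.014 in 54 and in 50 arrays, -0.000107 with array weights, -0.033 in replicates 1 to 3 and -0.0048 in replicates 4 to 6, and -0.056 to 0.58 when each array was left out. Between RSG and DMSO at 12 h, HLA-DRA (-0.15) was 0.0016 in 54 arrays with the block and 0.017 in replicates 4 to 6, with -0.66 to 0.38 when each was left out. HLA-DMA (0.01) was -0.062 in 54 and in 50 arrays, -0.092 with array weights and with the block in 54, and -0.24 in replicates 1 to 3, with -0.15 to 0.082. HLA-DMB (-0.04) was 0.25 in replicates 1 to 3, with -0.35 to 0.068, and CTSS (-0.16) ranged from -0.43 to 0.033. The causes were not tested.

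The fall of HLA-DMA in RSG was lost with the authors' scaled table (-0.29), average scaling (-0.25), a fit of the 2 groups alone (-0.43, adjusted p = 0.0572) and in 50 arrays (-0.38), and without RSG 0.5 h replicates 4 or 6 or RSG 12 h replicates 2 or 3 in 59 arrays, and without RSG 0.5 h replicates 4 or 6 or RSG 12 h replicates 3 or 4 in 54. HLA-DRA in DMSO at 12 h passed the threshold in 59 arrays when 1 array among DMSO 12 h replicates 1, 2, 3 and 5, RSG 8 h replicate 1 and RSG 12 h replicates 2 and 5 was left out (0.77 to 1.59 over all arrays left out). CTSS passed it without DMSO 12 h replicate 1. The fit of the 2 groups alone gives no value over all times or for the interaction. HLA-DRA lies near the limit of detection on 54 arrays and CIITA, HLA-DOA and HLA-DPB1 below it on all, so that changes of these genes within the dim range could not be measured, and the number of arrays limits the rest.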
